A study of Homo sapiens with 3 samples.

Results

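The regions described here are close FOXA2 site pairs, places where FOXA2 was found at neighbouring positions no more than 1 kb apart in the Caco2 cell line. Caco2 is an established line from a human colorectal adenocarcinoma that is often studied in place of normal intestinal epithelium. FOXA2 is a forkhead transcription factor, and the study asked what part it has in gene regulation in intestinal epithelial cells. The labels list 3 libraries of these cells: 2 replicate chromatin immunoprecipitations with a FOXA2 antibody (Santa-Cruz sc-6554), each with a deposited peak list, and 1 input library without antibody, against which both lists were called. No treatment or genotype differed between them, and whether separate cultures were used for the replicates is not stated in the labels. The members were chosen by measured peak positions. Replicate 1 peaks with at least 1 bp in common with a peak of replicate 2 are called shared sites, and a close site is one whose nearest other shared site lies at most 1000 bp away, midpoint to midpoint. Of 24345 shared sites, 1586 were close, or 6.51%. For comparison, 7903 shared sites had their nearest other at 1 to 10 kb, and 14856 had none within 10 kb. Scores are the authors' tag counts per peak, scaled to 10000000 tags per library and rounded, and are called normalised tags. Replicate 1 held 26183147 tags and 63949 peaks, replicate 2 15756702 tags and 26907 peaks, and 38.1% of the replicate 1 peaks were shared.

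FOXA proteins bind DNA through a winged-helix domain that resembles that of linker histones, and they can engage their sites on nucleosomes. They are known as pioneer factors of the endoderm, where they take part in the specification and function of liver, pancreas, lung and gut. Enhancers often hold several sites for the same factor within the length of a few nucleosomes. In ChIP-seq, such neighbouring sites can be told apart only where they lie further apart than the DNA fragments and the peak caller resolve. The library fragments were selected at 200 to 300 bp, per the labels' protocols. The file headers give a fragment length of 88 bp in replicate 1 and 110 bp in replicate 2. Per the same headers, the minimum distance between peaks was set to 244 bp in replicate 1 and 300 bp in replicate 2. The lists do not fully keep to it: 39 neighbouring peaks of replicate 1 were closer than that, down to 173 bp, and 13 of replicate 2, down to 250 bp.

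Close sites came almost entirely as plain pairs, with more of them at short than at long spacing. The 1586 sites formed 757 pairs and 24 groups of 3, with no group of 4 or more, and gave 805 neighbour pairs of consecutive sites. Their median spacing was 579 bp (interquartile range 427 to 782 bp). From the replicate 2 midpoints of the same sites it was 580.5 bp (431.8 to 785 bp). The 300 to 400 bp range held 149 neighbour pairs and the 400 to 500 bp range held 150, which together is 37.1% of all. The number then fell to 119 at 500 to 600 bp and 102 at 600 to 700 bp. It was level beyond that, with 92, 91 and 92 in the 3 ranges of 100 bp up to 1000 bp. Counting error alone gives a 95% Poisson interval of 127 to 176 at 400 to 500 bp and of 74.2 to 113 at 900 to 1000 bp. The pairs were chosen by their spacing, so these intervals only describe the counts and no test was made. The decline went on outside the limit, with 67.2 neighbour pairs per 100 bp at 1 to 2 kb, 58.8 at 2 to 3 kb and 52.9 at 3 to 4 kb.

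**Figure D1:**
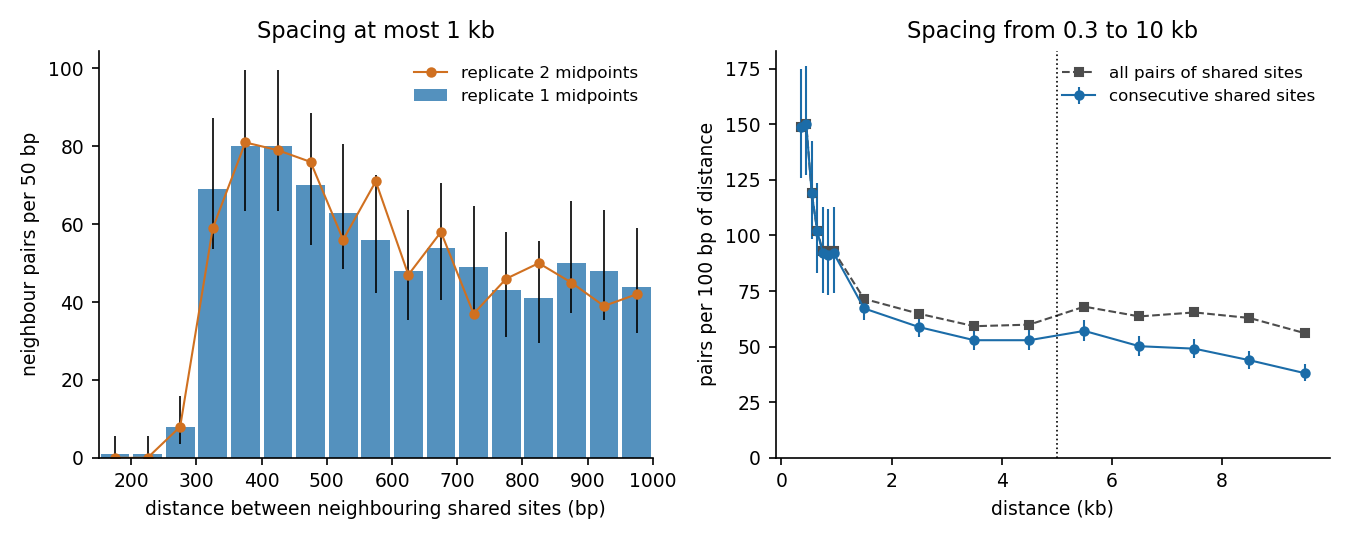
Left: number of neighbouring shared FOXA2 sites per 50 bp of distance (bars, replicate 1 midpoints with 95% Poisson intervals; points, replicate 2 midpoints of the same sites). Right: pairs per 100 bp of distance up to 10 kb for consecutive sites (with the same intervals) and for all pairs of sites; the dotted line is at 5 kb. Pairs are most frequent at 300 to 500 bp and fall to about 92 per 100 bp near 1000 bp.

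The lower end of the distribution lay at the limit of peak calling. Only 10 neighbour pairs were at most 300 bp apart. The closest lay on chromosome 5, with sites at 124339814 to 124339936 and 124340001 to 124340123, only 187 bp apart. These sites scored 9 and 10 in replicate 1, where they were separate peaks. In replicate 2 both overlapped a single peak of score 14, so this pair was not resolved there, the only such case among the 805. The next were 238 bp apart on chromosome 1 (164248530 to 164248652 and 164248768 to 164248890) and 257 bp apart on chromosome 14 (63203238 to 63203360 and 63203495 to 63203617). In replicate 2 the midpoints of those sites were 313 and 339 bp apart. The chromosome 1 sites scored 13 and 5 in replicate 1 and 8 and 10 in replicate 2, and the chromosome 14 sites 6 and 9, then 6 and 7. All 3 closest pairs were thus weak.

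At the upper end, the pairs nearest to the limit of 1000 bp on either side varied in score. The 3 widest pairs inside it were 1000 bp apart on chromosomes 5 and 8 and 999 bp apart on chromosome 12. The pair on chromosome 5, at 29759337 to 29759459 and 29760337 to 29760459, scored 56 and 8 in replicate 1 and 75 and 15 in replicate 2. The pair on chromosome 8, at 94743379 to 94743501 and 94744379 to 94744501, was weak, with 8 and 7 in replicate 1 and 8 in both peaks of replicate 2. On chromosome 12, the sites at 66024525 to 66024647 and 66025524 to 66025646 scored 24 and 14, then 42 and 14. The first pairs outside it lay 1001 bp apart on chromosome 2, with scores of 19 and 17 in replicate 1 and 27 and 20 in replicate 2, and 1001 bp apart on chromosome 7, with 7 and 25, then 11 and 32. The third was 1005 bp apart on chromosome 1, with 17 and 18, then 24 and 11.

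The spacing measured in the replicates was nearly the same. Over the 804 neighbour pairs with separate replicate 2 peaks, the spacing in replicate 2 differed from that in replicate 1 by a median of 24 bp in either direction, and by at most 70 bp in 90% of them. It differed by at most 50 bp in 650 of them (80.8%) and by over 100 bp in 28 (3.48%). The mean difference, replicate 2 minus replicate 1, was 4.91 bp with an SD of 42.0 bp. Neighbours at 1 to 10 kb that had no close site gave an SD of 42.1 bp, a median absolute difference of 23 bp and a mean of 0.51 bp over 4337 pairs. The spread of the spacing was thus nearly the same for close and for wider neighbours. In replicate 2, 19 of the neighbour pairs were more than 1000 bp apart.

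Many more close pairs were called in replicate 1 than were shared. The whole replicate 1 list held 4689 consecutive peaks at most 1000 bp apart, with a median spacing of 496 bp. Both peaks were shared in 796 of these (17.0%, 95% Wilson interval 15.9% to 18.1%), 1 peak in 2162 (46.1%) and neither in 1731 (36.9%). In 9 further cases a peak of replicate 1 alone lay between the shared ones. Consecutive replicate 1 peaks further apart had both shared in 21.8% at 1000 to 2000 bp, 21.2% at 2000 to 5000 bp and 19.5% at 5000 to 10000 bp. Neither was shared in 37.0%, 37.2% and 35.9% of them. The low share in replicate 1 was therefore only a little lower for close pairs than for wider ones, in a list of which 38.1% of the peaks were shared. In the whole list of replicate 2, 1033 consecutive peaks were that close, with a median spacing of 572 bp, and both were shared in 793, or 76.8% (74.1% to 79.2%). At 1 to 10 kb the replicate 2 value was 80.8% (79.8% to 81.8%). The close pairs were thus a small share of those in the longer list and most of those in the shorter one. These intervals, like all others of shares here, cover counting error only.

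Below 500 bp, peaks beside a shared site were found in the other replicate less often than elsewhere. Of the replicate 1 peaks with a score of 21 to 40 that lay 300 to 500 bp from another shared site, 144 of 196 were shared, or 73.5% (95% Wilson interval 66.9% to 79.2%). At 500 to 1000 bp the value was 95.6% (92.4% to 97.4%, n = 270), and at 1 to 10 kb it was 94.9% (93.8% to 95.8%, n = 1989). The same order held for scores of 9 to 12, with 28.0% (22.95% to 33.6%, n = 268) at 300 to 500 bp, 48.6% (43.2% to 54.0%, n = 327) at 500 to 1000 bp and 48.8% (46.9% to 50.6%, n = 2808) at 1 to 10 kb. At scores of 3 to 5 the values were close to each other, at 7.03%, 7.69% and 7.68%. Among consecutive replicate 1 peaks at most 300 bp apart, only 10 of 450 had both peaks shared, or 2.22% (1.21% to 4.04%). At 300 to 400 bp it was 13.1% (11.3% to 15.2%, n = 1138), at 400 to 500 bp 18.8% (16.3% to 21.7%, n = 796), and from 500 bp to 2 kb it stayed between 20.1% and 22.5%. The counts of shared pairs at 300 to 500 bp are therefore low relative to those of replicate 1, which numbered 1138 at 300 to 400 bp and 377 at 900 to 1000 bp. What part the larger minimum distance and the lower depth of replicate 2 have in this was not tested.

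**Figure D2:**
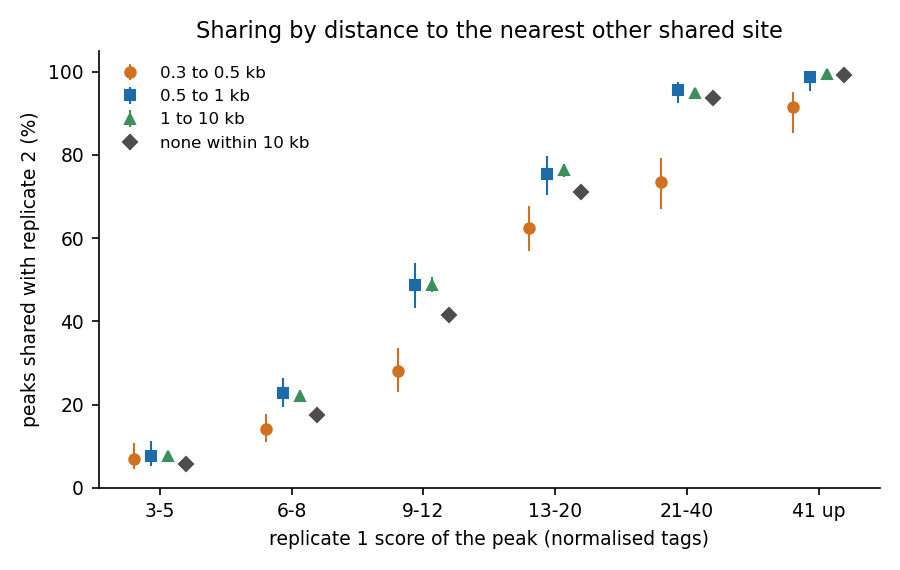
Percentage of replicate 1 peaks that overlap a replicate 2 peak, by replicate 1 score (normalised tags) and by distance to the nearest other shared site, with 95% Wilson intervals. From scores of 6 up, peaks at 300 to 500 bp lie below those at 500 to 1000 bp and at 1 to 10 kb, which lie together.

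Close sites scored a little higher than isolated ones. The median score of close sites was 18 in replicate 1 (interquartile range 11 to 31) and 15 in replicate 2 (10 to 27). Sites with the nearest other at 1 to 5 kb had medians of 17 and 15, those at 5 to 10 kb 17 and 13, and those with none within 10 kb 16 and 11. The interquartile ranges of these classes overlapped widely. Of sites with a mean score up to 10, 341 of 6909 were close, or 4.94% (95% Wilson interval 4.45% to 5.47%), against 167 of 1929, or 8.66% (7.48% to 10.0%), of those over 50. Ordered by the mean of their ranks in the 2 replicates, the top 2434 shared sites included 210 close ones, or 8.63% (7.58% to 9.81%). The rise was not particular to close sites. Sites with the nearest other at 1 to 10 kb made up 28.5% of those with a mean up to 10, 39.0% of those over 50 and 38.7% of the top 2434. Close sites held 7.02% of the summed score of all shared sites in replicate 1 and 7.63% in replicate 2, for 6.51% of the sites.

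The 10 neighbour pairs whose lower-scoring site was highest stood on 6 chromosomes and spanned nearly the whole range of spacings, from 356 to 968 bp. Neither site of any of them had a mean below 61.5 normalised tags, which is far above the median of 16.5 for close sites. The first lay on chromosome 11, with sites at 129194157 to 129194279 and 129194570 to 129194692, 413 bp apart. Its left site scored 120 in replicate 1 and 54 in replicate 2, and its right site 155 and 100, so the right site was the higher one in both. The means were 87.0 ± 46.7 and 127.5 ± 38.9 (SD, n = 2), and replicate 1 was the higher library at both sites.

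The next on the list were closely reproduced. On chromosome 2, the sites at 222400313 to 222400435 and 222400749 to 222400871 scored 82 and 146 in replicate 1 and 91 and 148 in replicate 2. Their spacing was 436 bp in replicate 1 and 498 bp in replicate 2, the largest disagreement in position of the 10. On chromosome 5, the sites at 142797689 to 142797811 and 142798074 to 142798196, 385 bp apart, scored 125 and 70, then 121 and 90. Here the left site was the higher one in both replicates.

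A second pair on chromosome 11, at 66556948 to 66557070 and 66557311 to 66557433, was balanced. It scored 75 and 81 in replicate 1 and 76 and 79 in replicate 2, at a spacing of 363 bp. The third on that chromosome, at 113948557 to 113948679 and 113949150 to 113949272, lay 593 bp apart and scored 102 and 76, then 76 and 62. On chromosome 20, the sites at 52417491 to 52417613 and 52417847 to 52417969, 356 bp apart, were equal in replicate 1, with 95 and 91, but not in replicate 2, with 75 and 43. The pair on chromosome 3, at 194167606 to 194167728 and 194168083 to 194168205, lay 477 bp apart and scored 62 and 124, then 67 and 94.

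A few of these pairs joined a dominant site to a weaker one. On chromosome 7, the site at 117212992 to 117213114 scored 196 in replicate 1 and 209 in replicate 2, and its neighbour at 117213398 to 117213520, 406 bp away, scored 63 and 73. The higher score was 3.11 times the lower in replicate 1 and 2.86 times in replicate 2. On chromosome 5, the site at 123997392 to 123997514 scored 302 and 255 (278.5 ± 33.2, SD, n = 2), the highest mean of any close site, and its neighbour at 123998262 to 123998384, 870 bp away, scored 75 and 57. That is a ratio of 4.03 in replicate 1 and 4.47 in replicate 2. The last of the 10, also on chromosome 5, at 147046085 to 147046207 and 147047053 to 147047175, had an even balance at 968 bp. It scored 55 and 51 in replicate 1 and 75 and 72 in replicate 2, where both sites were higher.

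The 24 groups of 3 sites lay on 13 chromosomes and spanned 702 to 1800 bp, with a median of 1183 bp. The same single site was the highest of the 3 in both replicates in 16 of them, and in 2 others sites tied for the highest score in a replicate. The middle site was the highest in 11 groups in replicate 1 and in 8 in replicate 2. The group with the largest summed score, on chromosome 17 from 48770186 to 48771643, had a high middle site, with 61, 136 and 52 in replicate 1 and 40, 112 and 48 in replicate 2. In the second, on chromosome 11 from 106337732 to 106339084, the replicates disagreed: the sites scored 32, 36 and 40 in replicate 1 but 72, 121 and 34 in replicate 2. The third, on chromosome 22 from 24901433 to 24903170, had its scores in increasing order along the chromosome in both, with 11, 27 and 102, then 18, 29 and 79. These 3 groups were singled out after their values were seen. Around close groups of either size, 320 of 781 had a further shared site within 10 kb (95% Wilson interval 37.6% to 44.5%), against 42.7% (41.3% to 44.2%) of the 4337 neighbour pairs at 1 to 10 kb.

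Within a close pair the scores typically differed by less than 2-fold. The median ratio of the higher to the lower score was 1.90 in replicate 1 (interquartile range 1.34 to 3.0) and 1.70 in replicate 2 (1.28 to 2.53). The ratio was under 1.5 in 272 neighbour pairs in replicate 1 (33.8%) and at least 4 in 113 (14.0%). In replicate 2, 72 (8.94%) reached 4. Among neighbours at 1 to 10 kb without close sites, the medians were 2.0 and 1.83, and 19.1% and 14.0% reached 4. A ratio of at least 2 with the same site higher in both replicates was found in 239 of the 805 close neighbour pairs, or 29.7% (95% Wilson interval 26.6% to 32.9%), against 32.5% over all consecutive shared sites at any distance. The interval of the close pairs holds that background value. It lies below the 35.4% (33.9% to 36.8%) of neighbours at 1 to 10 kb, of which those at 1 to 5 kb had 31.3% (29.4% to 33.3%) and those at 5 to 10 kb 39.3% (37.3% to 41.3%). Consecutive sites that both had none within 10 kb gave 30.7% (29.9% to 31.5%, n = 11848), near the value of close pairs. Their median ratios were 2.0 in replicate 1 and 1.705 in replicate 2, while 18.4% and 13.9% of them reached 4. Close pairs thus differed from them mainly in having fewer ratios of at least 4.

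Most of the difference in balance between close pairs and neighbours at 1 to 10 kb fell at 5 kb and not at 1 kb. The ratio never exceeded 12.7 in replicate 1 or 11.0 in replicate 2 among close pairs. It stayed that low among all consecutive sites up to 5 kb apart, with at most 11.2 and 11.3 at 1 to 5 kb, and then reached 40.7 and 24.9 at 5 to 7.5 kb. The 95th percentile was 5.84 in replicate 1 and 5.15 in replicate 2 for close pairs, 6.03 and 4.88 at 2.5 to 5 kb, and 9.48 and 7.5 at 5 to 7.5 kb. Neighbours at 1 to 5 kb had median ratios of 1.90 and 1.75, like close pairs, and those at 5 to 10 kb 2.10 and 1.92. Where the higher site scored at least 60 in replicate 1, the lower site had a median of 26.5 in close pairs, 25 at 2.5 to 5 kb and 16 at 5 to 7.5 kb. Weak neighbours of strong sites were thus scarce up to 5 kb. Per the file headers, a peak needed 4 times the tag density of the surrounding 10000 bp, a region that reaches 5 kb to each side if it is centred on the peak, and this step removed 3180 putative peaks in replicate 1 and 818 in replicate 2. What it removed was not analysed here, so its part in the balance of close pairs was not tested.

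**Figure D3:**
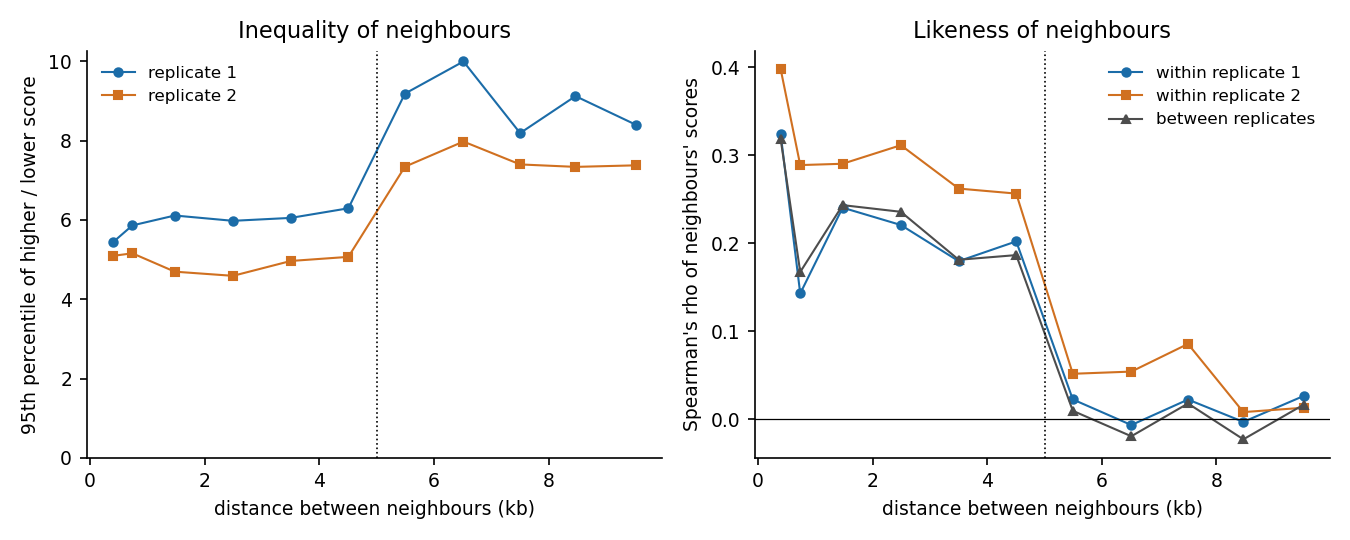
Left: 95th percentile of the higher-to-lower score ratio of consecutive shared sites, by their distance in kb, for each replicate. Right: Spearman's rho of the scores of neighbours within each replicate and between them; both panels change at the dotted line at 5 kb. Close pairs are the first 2 points, whose percentiles lie near those at 1 to 5 kb, while rho is highest at most 500 bp apart (0.32 and 0.40 within the replicates).

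Likeness of neighbours followed the same division. Spearman's rho between the scores of the sites in a close pair was 0.21 in replicate 1 and 0.32 in replicate 2 (n = 805). Taking one site's score from each replicate, so that the scores came from different libraries, gave 0.22 as the mean of both ways to do so, and 0.138 where only sites with a score of at least 10 in both replicates were used. At 1 to 5 kb the values were 0.21, 0.27 and 0.21 (n = 2145), and at 5 to 10 kb 0.00, 0.03 and -0.01 (n = 2192). Pairs at most 500 bp apart had the highest values, 0.32 and 0.40 (n = 309), against 0.14 and 0.29 at 500 to 1000 bp (n = 496). These correlations run across pairs of sites, which are not independent replicates. Both sites of a pair had to be called as peaks, and what part the caller has in the likeness was not tested. As the values at 1 to 5 kb were near those of all close pairs, likeness was not particular to distances under 1 kb.

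The order of the sites in a close pair was largely the same in both replicates. Leaving out 60 ties, the site with the higher score in replicate 1 also had the higher score in replicate 2 in 632 of 745 neighbour pairs, or 84.8% (95% Wilson interval 82.1% to 87.2%). It was 82.5% (80.8% to 84.1%) at 1 to 5 kb and 84.6% (82.9% to 86.0%) at 5 to 10 kb, within that interval. The order was kept in 65.7% (59.3% to 71.5%, n = 230) of close pairs with a replicate 1 ratio under 1.5. That rose to 96.6% (93.6% to 98.2%, n = 263) for ratios from 2 to under 4 and to 112 of 113 for ratios of 4 or more. Across the 805 neighbour pairs, the log2 score ratios of left to right site in the replicates had a Pearson's r of 0.84 and a Spearman's rho of 0.83. At 1 to 10 kb the values were 0.86 and 0.84 (n = 4337), so the replicates agreed on the balance of close pairs about as well as on that of wider ones. At 300 to 400 bp the r was 0.76 (n = 149) and the median ratios were 1.73 and 1.5, against an r of 0.86 and ratios of 2.0 and 1.79 at 400 to 500 bp (n = 150).

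**Figure D4:**
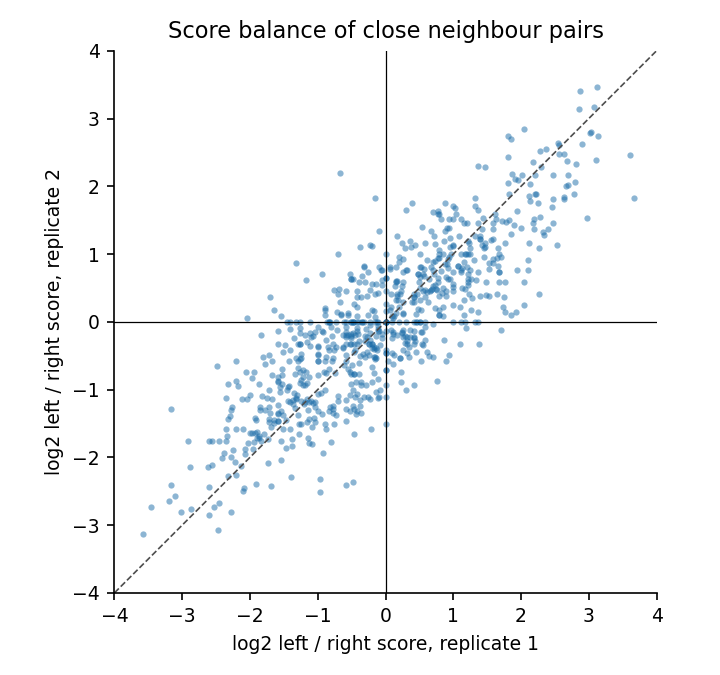
Log2 ratio of left to right score of the 805 neighbour pairs at most 1 kb apart, replicate 1 (x axis) against replicate 2 (y axis), 1 point per pair, with the line of equality dashed. Most points lie in the quadrants where the same site is higher in both replicates, 632 of the 745 pairs without ties.

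The extremes of balance show what these values look like at single loci. Among the 120 neighbour pairs with all 4 scores at least 20, the most unequal was on chromosome 3, at 24670164 to 24670286 and 24671129 to 24671251, 965 bp apart. It scored 203 and 25 in replicate 1 and 166 and 24 in replicate 2, so the left site was 8.12 and 6.92 times the right one. On the same chromosome, the sites at 160514317 to 160514439 and 160514659 to 160514781 were only 342 bp apart and scored 36 and 181, then 31 and 150. The third, on chromosome 11 at 111205523 to 111205645 and 111205986 to 111206108, 463 bp apart, scored 176 and 36, then 146 and 30. In all 3 the ratio was nearly equal in the replicates. The most equal was on chromosome 5, at 17305289 to 17305411 and 17306110 to 17306232, with 55 and 51 in replicate 1 and 51 and 58 in replicate 2. The next were on chromosome 7, at 87855674 to 87855796 and 87856432 to 87856554, with 23 and 25, then 30 and 30, and on chromosome 15, at 63766345 to 63766467 and 63766667 to 63766789, with 71 and 58, then 33 and 41. In the first and the last of these the order of the sites was opposite in the replicates.

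At a few places the replicates disagreed outright. The neighbour pair whose order differed most was on chromosome 7, at 99029545 to 99029667 and 99029904 to 99030026, 359 bp apart. It scored 15 and 24 in replicate 1 but 69 and 15 in replicate 2, a difference of 2.88 in the log2 ratio. The ratio of replicate 1 to replicate 2 was 0.217 at the left site and 1.6 at the right site. On chromosome X, the sites at 13006459 to 13006581 and 13006949 to 13007071, 490 bp apart, scored 10 and 25, then 20 and 11. On chromosome 6, those at 117835929 to 117836051 and 117836638 to 117836760, 709 bp apart, scored 8 and 33, then 26 and 25. These pairs were chosen for their disagreement.

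At single sites, the replicates were about as alike in close pairs as at sites 1 to 5 kb from the nearest other. Spearman's rho of the replicates' scores was 0.81 over the 1586 close sites, 0.81 at 1 to 10 kb and 0.75 over sites with none within 10 kb. The SD of the log2 ratio of replicate 1 to replicate 2 was 0.59 at close sites, 0.58 at 1 to 5 kb, 0.61 at 5 to 10 kb and 0.63 at sites with none within 10 kb. The SD that counting error alone would give was 0.38, 0.39, 0.40 and 0.42 in the same order. At close sites with a mean score up to 10 the SD and that from counting error were nearly equal, 0.52 each. In that score range at 1 to 10 kb the SD, 0.51, was even below the 0.52 from counting error. The limit on the mean and the need for a peak in both lists restrict the spread there. The comparison therefore cannot show how much of the difference between the replicates is counting error. A ratio more than 2-fold from the median of all shared sites was found at 7.76% of the 1586 close sites (95% Wilson interval 6.54% to 9.18%), against 9.77% of all shared sites. At 1 to 5 kb it was 8.51% (7.71% to 9.39%), which overlaps the interval of close sites. The share was not lower at close sites in every score range. With a mean up to 10 it was 8.50% at close sites and 7.83% at sites with none within 10 kb, and over 50 it was 4.19% and 3.56%. In the ranges between, it was lower at close sites, as with 7.73% against 14.2% at over 15 to 25. Peak centres lay a median of 15 bp apart between replicates and at most 48 bp apart in 90% of close sites, against 15 and 47 bp over all shared sites. The required overlap of the peaks bounds these distances in advance.

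The ratio of the replicates was lower at sites with a neighbour within 10 kb than at isolated ones, most so within 5 kb. Its median was 1.13 at close sites, a log2 ratio of 0.17, against 0.19 at 1 to 5 kb, 0.24 at 5 to 10 kb and 0.31 at sites with none within 10 kb. Within close sites it did not follow the distance, since the median was 0.22 for the 617 sites with the nearest other at most 500 bp away and 0.15 for the 969 at 500 to 1000 bp. The difference from sites with none within 10 kb was therefore -0.135 for all close sites and -0.0863 for those at most 500 bp apart. Replicate 1 was the higher one at 58.6% of close sites and at 65.8% of those with none within 10 kb. The shift was present at sites of like score. With a mean over 25 to 50, the median log2 ratio was 0.22 at close sites (n = 302) and 0.45 at sites with none within 10 kb (n = 2209), and with a mean over 50 it was 0.22 and 0.35. With a mean up to 10 it was 0.00 in both. In 22 of 23 chromosomes the median of close sites was below that of sites with none within 10 kb, the exception being chromosome X with 0.25 and 0.22. Close sites and those at 1 to 5 kb were hardly apart. Sites at 5 to 10 kb lay between these and sites with none within 10 kb, so the shift was graded and not particular to close sites. The shift was small beside the spread between sites, since the middle 50% of close sites ran from -0.22 to 0.54.

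**Figure D5:**
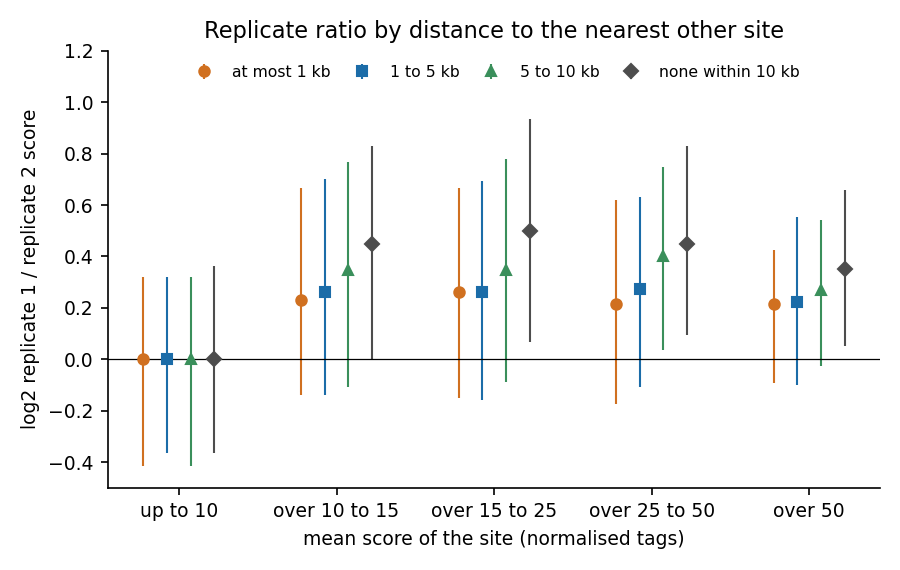
Median log2 ratio of replicate 1 to replicate 2 score (points) and interquartile range (lines) of shared sites by mean score in normalised tags and by distance to the nearest other shared site. Above a mean score of 10 the medians of close sites lie between 0.22 and 0.26, below those of sites with none within 10 kb (0.35 to 0.50), and the ranges overlap.

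Neighbouring sites also deviated together between the replicates. Across close neighbour pairs, the log2 replicate ratios of the sites had a Spearman's rho of 0.25 (n = 805). Wider distances were taken here over all consecutive sites, including those with a close site. The rho was 0.19 at 1 to 5 kb (n = 2318), 0.15 at 5 to 10 kb (n = 2384), 0.09 at 10 to 100 kb (n = 11880) and 0.08 beyond 100 kb (n = 6934). With each chromosome's median subtracted the values were 0.24, 0.18, 0.15, 0.08 and 0.07. Pairs without close sites, with no median subtracted, gave 0.19 at 1 to 5 kb (n = 2145) and 0.16 at 5 to 10 kb (n = 2192). Unlike the likeness of scores, the rho of the replicate ratios did not drop to 0 at 5 kb. Within the classes it did not fall evenly, since it was 0.12 at 1 to 2 kb (n = 672) and 0.22 at 2 to 5 kb (n = 1646). The sites share both libraries and their stretch of chromosome, and no test was made.

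Close sites were spread over the chromosomes much as shared sites were. Their share ran from 5.46% of the shared sites on chromosome 22 (13 of 238) to 8.80% on chromosome X (50 of 568). Of 23 chromosomes, chromosome X alone had a 95% Wilson interval, 6.74% to 11.4%, without the overall share of 6.51%. Among that many 95% intervals, counting error alone can place the overall share outside an interval. Chromosomes 15 (7.83%) and 3 (7.43%) came next, both with intervals that held the overall share. Replicate 1 alone had another peak within 1 kb of 97 close sites, or 6.12% (5.04% to 7.41%), against 711 of 7903 (8.39% to 9.65%) sites with the nearest other at 1 to 10 kb. Close sites also have their partner within that distance, and its part in the difference was not tested.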

How the data were processed

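FOXA2 ChIP-seq peak lists of 2 replicates from Caco2 cells were used, with n = 2 libraries in a single group. Build hg19, Bowtie 1.0.0 and HOMER 1.2 are listed, without their roles, per the submitters' processing notes. Peaks were called by the authors separately in each replicate against the input, requiring 4 times the input and 4 times the surrounding 10000 bp at a false discovery rate of 0.001, per the file headers. The deposited score was read as the tag count per 10000000 tags, rounded, since the summed scores give 100.4% and 100.2% of the tags in peaks that the headers state; a unit then stands for 2.62 tags in replicate 1 and 1.58 in replicate 2. From these, overlaps, midpoint distances (peak widths 123 and 151 bp), score ratios, 95% Wilson and Poisson intervals, and correlations across sites were computed with Python 3.11.15, numpy 2.4.6, pandas 2.3.3 and scipy 1.17.1. The counts of shared sites and close pairs, and the median and SD of the log2 replicate ratio, were tested on simulated data. The intervals and correlations were not. Coordinates are 1-based. Counting-error SDs follow from the tags behind each score. Positions are not replicates, so no p-value is given. Members, rules and comparisons were chosen with earlier results of these data known. Named pairs follow a written rule: the 10 with the highest lower site, the 3 closest, the 3 widest, the first 3 outside the limit, the 3 most and 3 least equal, and the 3 whose order differed most; a further part of it, runs of 4 or more sites, found none. The division at 5 kb was added after seeing the data. Sequences, motifs and genes at the sites were not analysed here.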

Additional observations from a re-analysis of the deposited data

How the results depend on the processing

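Of 42 alternatives of 7 results, 26 kept their value within the spread allowed (1.5 times for counts, differences and correlations, the 95% interval for percentages, 1 SD between the replicates otherwise), 16 moved and none changed direction. The number of close sites was 864 with a score of at least 10 in both replicates, 617 with a limit of 500 bp and 2861 with one of 2000 bp. From a single replicate's whole list it was 2025 to 9039. The median spacing, for which 1 SD between replicates is about a base pair, was 576 bp with a reciprocal overlap of 50%, 577 bp with midpoints within 100 bp, 552 bp with a score of at least 10, 397 bp and 928 bp with limits of 500 and 2000 bp, and 496 to 572 bp from a single list. With a score of at least 10 in both, 5.44% of close sites were over 2-fold from the median replicate ratio and the likeness of neighbours between replicates was 0.138, where such a limit removes weak sites by construction. The log2 replicate ratio of close sites minus that of sites without a neighbour was -0.135, and -0.0863 with the limit of 500 bp; the cause was not tested. Ordering sites by the number in their peak names, which ran against the score within every chromosome, gave the same order in 80.2%, and the median ratio was 1.70 with replicate 2 scores. These last 2 were chosen after seeing the data. Results that compare the replicates have no value with 1 replicate. No paired analysis was possible because there is a single group. The motif and annotation alternatives were not run, as a genome of this build was not used here.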
